A study of Mus musculus with 23 samples.

Results

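The 895 regions described here were open in Kupffer cells titled as controls of a Smad4 experiment, had no peak in Kupffer cells titled Smad4 knockout, and were open in Kupffer cells that lack LXR alpha but still carry TIM4. They were taken from 155137 regions, made by merging the overlapping ATAC-seq peaks of 23 mouse libraries on the autosomes and X. A member had a peak in both libraries titled Smad4 control and in both libraries of TIM4+ Nr1h3 knockout Kupffer cells, and in neither library titled Smad4 knockout. The members were thus selected on the peak calls of these 6 libraries, whose values are given as a description only. ATAC-seq inserts sequencing adapters into DNA with a transposase, which reaches open chromatin most easily, so that peaks of inserted tags mark promoters, enhancers and other accessible sites.

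Kupffer cells are the resident macrophages of the liver, lining its blood sinusoids, where they clear particles, aged red cells and lipoproteins. Ligands of the TGF-β and BMP family bind paired membrane receptors that phosphorylate the receptor-regulated SMADs, and SMAD4 is the common partner with which these enter the nucleus and bind DNA. LXRα, encoded by Nr1h3, is a nuclear receptor activated by oxysterols that binds DNA as a dimer with RXR and controls cholesterol efflux and lipid genes. Both factors are known to be required for Kupffer cell identity, and TIM4, a phosphatidylserine receptor encoded by Timd4, marks long-resident Kupffer cells.

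The Smad4 experiment had 2 libraries titled Smad4 knockout and 2 titled control, all from untreated mice. Their strain labels give the opposite genotypes: libraries titled knockout are labelled Smad4 flox/flox, and those titled control Smad4 flox/flox Clec4f-cre +/-. The tag-directory names in the file headers follow the titles, and so do the directions given here. The LXRα experiment had 2 TIM4+ and 2 TIM4- knockout libraries of the strain Nr1h3 flox/flox Clec4f-cre +/-, and 2 TIM4+ control libraries of the strain Nr1h3 flox/flox, all untreated. The remaining libraries were blood Ly6C-high monocytes of untreated C57BL/6J mice (2 libraries), repopulating liver macrophages (RLMs) of Clec4f-cre/Rosa26iDTR mice 24 h (3 libraries) and 48 h (2 libraries) after diphtheria toxin, Kupffer cells of the same strain given PBS (2 libraries), and bone marrow-derived macrophages of C57BL/6J mice, cultured for 4 days, with the Notch ligand DLL4 for 24 h or without it (2 libraries each). In these models the control elements of Clec4f, a Kupffer cell lectin, drive cre, so recombination is limited to cells that use that gene, and in the Rosa26iDTR strain cre switches on the toxin receptor, so that the toxin kills those cells and leaves the host its other cells. Both floxed control and knockout mice carry the floxed alleles, and cells that have not recombined are not separated from cells that have except by the sort. Mouse numbers in the titles mark the blood, repopulation and PBS libraries as different mice, and the 4 Smad4 libraries carry different numbers that the titles do not explain. For the Nr1h3 and cultured libraries the labels name no animal, so p-values there measure the spread between these samples, which may be technical.

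Between 10.4 and 18.4 M tags were behind each library, and the lists held 48775 to 104206 peaks. The libraries titled Smad4 knockout had 17.9 and 16.1 M tags, of which 15.4% and 19.6% lay in 49438 and 57403 peaks. The titled controls had 16.5 and 18.3 M tags, of which 19.5% and 25.2% lay in 60727 and 67555 peaks. The TIM4+ Nr1h3 knockouts had 15.7 and 14.7 M tags, with 21.9% and 26.6% of them in 48775 and 53972 peaks. The first titled knockout had the lowest share of tags in peaks of the 6 libraries, while the second lay next to the first titled control, and the part that this plays in the membership was not tested. Within Nr1h3, the interval chr2:91189796-91190011 (mm10) had a peak in all 4 Nr1h3 knockout libraries, with 23 and 41.4 normalised tags in the TIM4- and 20.4 and 23.2 in the TIM4+ knockouts, and in none of the other 19 libraries. No region of Smad4 separated the titled groups: the highest, which lies inside the gene, had 55.8 and 54.6 normalised tags in the titled knockouts and 55.1 and 75.4 in the titled controls. Of 32 Kupffer identity genes, 31 or 32 had a peak nearby in each titled knockout, 32 in each titled control and 31 in each TIM4+ Nr1h3 knockout, and their summed signal was 4108 to 5608 in titled knockouts and 6060 to 7916 in titled controls. Of 14 liver endothelial genes, 7 or 8 had one in the titled knockouts and 8 to 12 in the titled controls, with sums of 578 to 840 in titled knockouts and 932 to 1055 in titled controls, and of 16 hepatocyte genes 2 to 4 and 6 or 7 did, with sums of 77.6 to 153.7 in titled knockouts and 118 to 148 in titled controls. Summed signal was lower without overlap at the monocyte list, with 1552 to 1989 in titled knockouts and 2068 to 2548 in titled controls, and at the stellate list, with 256 to 287 in titled knockouts and 331 to 424 in titled controls. It was so too at the neutrophil list, with 504 to 702 in titled knockouts and 737 to 943 in titled controls, and at the dendritic list, with 877 to 1156 in titled knockouts and 1201 to 1445 in titled controls. The sums of the B cell list overlapped, with 348 to 432 in titled knockouts and 411 to 659 in titled controls. The part of these differences in the membership was not tested.

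A promoter window here runs from 250 bases before to 50 bases after a RefSeq start, and 42 members overlapped one. Of the genes fixed in lists for this work, 3 had a member over their own promoter: Clec4f, Smad9, a receptor-regulated SMAD of the BMP branch, and Itgam, the integrin alpha M chain (CD11b) of myeloid cells. Their windows are shown because they carry the Kupffer, SMAD and macrophage readings described after them. They are the RefSeq sequences of GRCm38.p6 (mm10), Clec4f at chr6:83656067-83656366 on the minus strand, Smad9 at chr3:54755332-54755631 and Itgam at chr7:128062390-128062689 on the plus strand. Capitals mark the SMAD-binding letters CAGAC, or GTCTG on the other strand, and GGCGCC.
Clec4f: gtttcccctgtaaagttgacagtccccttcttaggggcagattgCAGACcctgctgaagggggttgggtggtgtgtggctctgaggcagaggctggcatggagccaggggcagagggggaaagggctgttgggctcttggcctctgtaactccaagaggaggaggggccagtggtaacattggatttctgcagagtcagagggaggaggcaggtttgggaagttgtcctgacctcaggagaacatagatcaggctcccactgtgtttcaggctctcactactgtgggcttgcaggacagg
Smad9: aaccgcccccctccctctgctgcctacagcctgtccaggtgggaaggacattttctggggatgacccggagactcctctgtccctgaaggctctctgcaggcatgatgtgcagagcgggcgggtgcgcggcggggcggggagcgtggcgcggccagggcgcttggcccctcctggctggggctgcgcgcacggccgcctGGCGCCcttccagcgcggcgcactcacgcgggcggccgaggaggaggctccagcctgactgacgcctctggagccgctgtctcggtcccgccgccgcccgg
Itgam: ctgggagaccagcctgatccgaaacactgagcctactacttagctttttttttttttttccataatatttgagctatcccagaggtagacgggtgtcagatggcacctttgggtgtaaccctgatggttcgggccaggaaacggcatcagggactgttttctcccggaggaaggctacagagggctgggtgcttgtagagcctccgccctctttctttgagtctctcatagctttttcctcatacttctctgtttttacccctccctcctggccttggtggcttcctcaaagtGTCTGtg
The Clec4f and Itgam windows each held CAGAC once, and the Smad9 window held GGCGCC once. The letters lie inside the member at Smad9 and Itgam, while at Clec4f they lie 30 bp outside it, in the part of the window the member does not cover. Over all 49 promoter windows that members overlapped, CAGAC occurred on either strand in 24 (49%), against 49.5% of 32619 RefSeq windows of the same length. GGCGCC occurred in 12 (24.5%), against 12%, and the GC-box letters GGGCGG, which can overlap it, in 24 (49%), against 35.9%. These windows are not all separate: overlapping windows of Ehbp1l1 both held GGCGCC, as did the Raver2 and Gm35956 windows of a shared member. The nuclear receptor letters AGGTCA occurred in 8 (16.3%), against 16.2%, the AP-1 letters TGANTCA in 6.12%, against 7.85%, and the E-box CANNTG in 75.5%, against 72.3%. The LXR direct repeat with a 4-base spacer, searched as its perfect form, was in none of the 49. A match gives letters within a window, not a bound site.

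Most members were low in signal. The median over members of the mean signal in the 4 libraries that required a peak was 12.13 normalised tags, with a range of 6.98 to 80.675, against 37.25 for regions with a peak in all 6 libraries and 9.525 for the 3333 regions lost under the titles that had no peak in either TIM4+ Nr1h3 knockout. A mean under 15 was found for 616 members (68.8%) and one over 30 for 49. The detection threshold of 8 to 11 tags in a peak, over all libraries, is in unscaled tags. In the 4 required libraries it came to 5.47 to 6.83 normalised tags, near which the smallest values sit. No value exists for a library without a peak. By library, the median member had 11.5 and 13.1 normalised tags in the titled controls, 10.9 and 13 in the TIM4+ Nr1h3 knockouts, 17.7 and 17.4 in the TIM4- knockouts and 16.8 and 15.2 in the Nr1h3 controls. Just outside the rule lay 2920 regions that 1 of the titled knockout libraries kept (676 in the first and 2244 in the second), with a median of 11.2 in the titled knockout that had the peak and of 13.95 in the 4 required libraries.

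**Figure D1:**
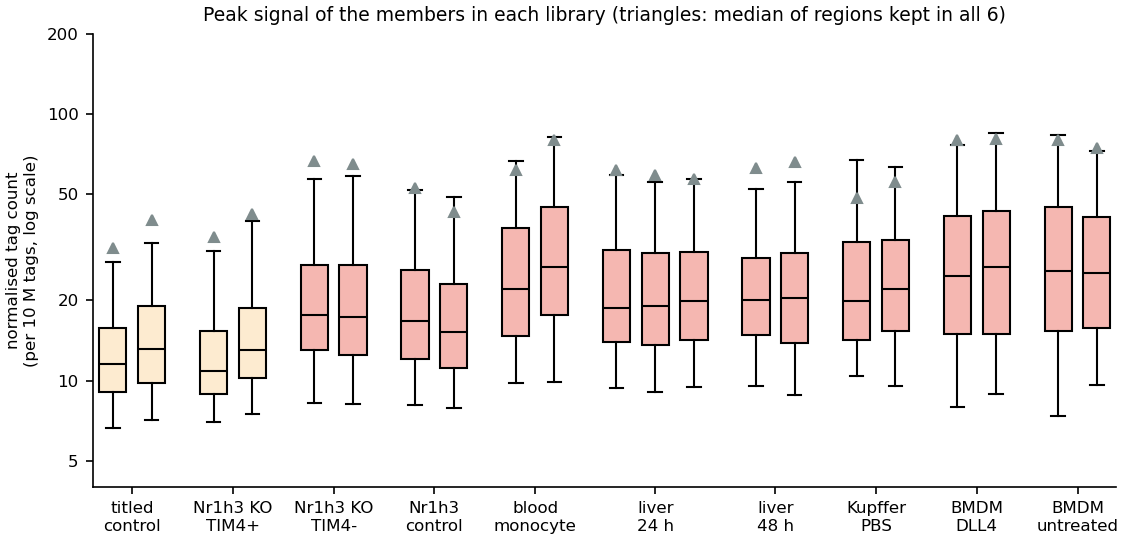
Normalised tag count per 10 M tags (log axis) of the members in each library that has a peak there, by group; boxes are quartiles and whiskers the 5th to 95th percentiles over members, with orange boxes for libraries the rule used. Medians of 10.9 to 13.1 in the 4 required libraries lie under the triangles, which mark the medians of regions with a peak in all 6 libraries.

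The highest members often had a titled knockout peak next to them. A peak of either titled knockout library lay within 1 kb of 262 members (29.3%), of 32 of the 49 members over 30 (65.3%) and of 122 of the 616 under 15 (19.8%). The median distance to the nearest titled knockout peak was 3301 bp. At Nhej1, a gene of DNA end joining, the titled knockouts had peaks of 39.6 and 42.8 normalised tags 12 bp from the highest member (chr1:75124845-75125096), which had 61.2 and 96.2 in the titled controls and 76.6 and 88.7 in the TIM4+ Nr1h3 knockouts. At Syk, a kinase of Fc and other immune receptors, the titled knockouts had peaks of 76.5 at 309 bp and 88.7 at 267 bp from the member (chr13:52571980-52572230, 10380 bp from the gene), which had 45.4 and 38.3 in the titled controls and 68.9 and 88.0 in the TIM4+ knockouts. At such members a lower signal and a moved peak call cannot be told apart. At Hmgn1, a nucleosome-binding protein gene, titled knockout peaks of 64.7 and 92.4 lay 40 and 41 bp from the member over the promoter (chr16:96127660-96127946), which had 34.5 and 51.9 in the titled controls. Of the 12 members with the highest mean, 8 (66.7%) had a titled knockout peak within 1 kb, and the other 4, near Snx24, Atp1b3, Nlrp3 and Slc20a1, had one at 1196 to 1876 bp.

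Of all 5523 regions lost under the titles, the members were 16.2%, while 1295 (23.4%) had a peak in 1 TIM4+ Nr1h3 knockout library and 3333 (60.3%) in neither. Among the 978 regions gained under the titles, 258 (26.4%) had a peak in both TIM4+ knockouts. A protein-coding gene lay within 50 kb of 765 members (85.5%), which named 715 genes, and 55.4% of members lay inside a gene body, against 54.8% of the losses not kept, 67.9% of regions in all 6 libraries and 60.1% of all regions. Over 10 kb from a start lay 64.5% of members and 61.7% of all regions. The 42 members over a promoter window were 4.90% of the 857 members off chromosome 18, where promoters were not used here, against 3.34% of losses not kept, 25.5% of regions in all 6 and 8.61% of all regions. Median width was 314 bp for members, 284 bp for losses not kept and 297 bp for regions in all 6. Chromosome X held 34 members (3.80%), against 1.98% of losses not kept and 2.41% of all regions, while X held 1.79% to 2.54% of the peaks of any 1 library. Another member lay within 50 kb of 111 members, and 10 genes had 3 members, among them Clec4f, Cd44, the hyaluronan receptor, Dlc1, a GTPase-activating protein, Ldoc1 and Lhfpl3.

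Outside the rule, which itself required peaks in Kupffer libraries, the members were open most often in other Kupffer cells. A peak was present at 86.8% ± 0.08 of members in TIM4- Nr1h3 knockouts and at 86.6% ± 5.14 in Nr1h3 controls (mean ± SD over libraries, n = 2 each). In the repopulation series the share was 47.0% ± 2.21 in blood monocytes (n = 2), 50.5% ± 3.66 in RLMs at 24 h (n = 3), 68.2% ± 5.45 in RLMs at 48 h (n = 2) and 82.5% ± 5.29 in PBS Kupffer cells (n = 2). Cultured macrophages had 69.1% ± 0.71 with DLL4 and 67.3% ± 5.45 without it (n = 2 each). The libraries of TIM4- knockouts and of Nr1h3 controls overlap, as do those of the cultured groups, whereas both PBS Kupffer libraries lie above both blood libraries. Regions in both titled controls had a higher share than members in each of these groups. Theirs was 73.4% in blood, 89.6% in PBS Kupffer cells and 90.4% in Nr1h3 controls. All regions had 43.9%, 40.6% and 39.3% there. The part of the rule in the members' Kupffer shares was not tested. The losses not kept had a lower share than members in each of these groups, with 35.1% ± 1.27 in TIM4- knockouts, 52.2% ± 10.5 in Nr1h3 controls and 60.8% in PBS Kupffer cells. That set was defined by no peak in the TIM4+ knockouts, where members had to have one. Its median signal in the titled controls was also lower, at 9.525 normalised tags, against 12.1 for members. Nothing about the members is therefore read from the gap. These shares move with the length of each list. Equal lists of the 48720 highest peaks of each library, members drawn anew, gave 28.9% in blood, 32.2% at 24 h, 40.7% at 48 h and 77.3% in PBS Kupffer cells, 66.7% in TIM4- knockouts and 85.2% in Nr1h3 controls. With equal lists the TIM4- libraries, at 67.6% and 65.7%, no longer overlapped the Nr1h3 controls, at 85.6% and 84.9%.

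**Figure D2:**
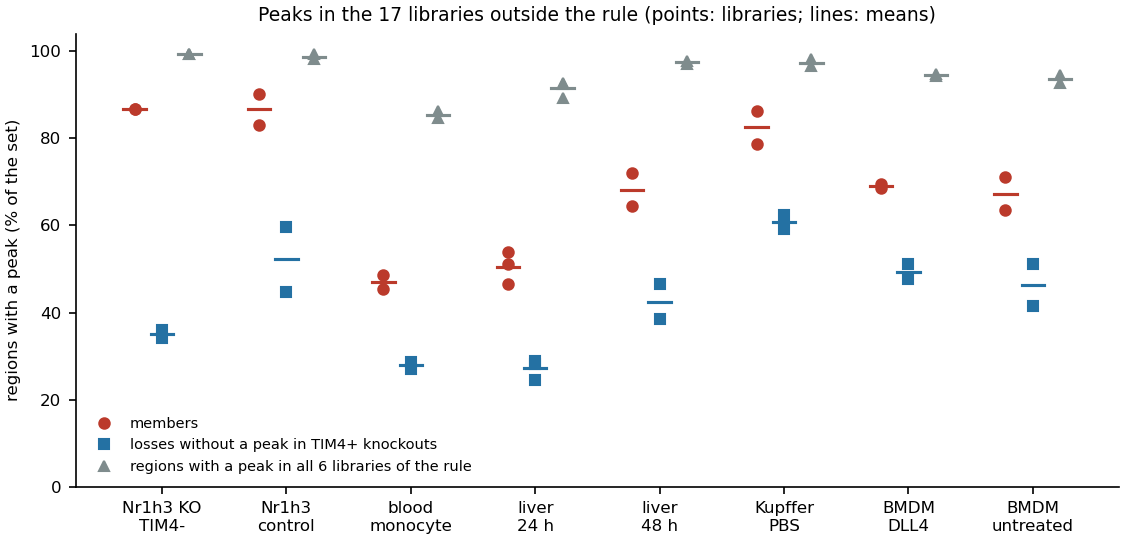
Percent of regions with a peak in each of the 17 libraries outside the rule (points, with lines for group means), for members, for titled losses absent from the TIM4+ Nr1h3 knockouts and for regions with a peak in all 6 libraries of the rule. Members run between the other sets in every group, near 87% in both Nr1h3 groups, and from 47.0% in blood to 82.5% in PBS Kupffer cells. With lists of equal length, not drawn, the Nr1h3 groups part, at 67.6% and 65.7% in TIM4- knockouts and 85.6% and 84.9% in controls.

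All 17 other libraries had a peak at 142 members (15.9%), against 1.95% of losses not kept, 75.1% of regions in all 6 and 19.5% of all regions. These are among the 569 members (63.6%) with a peak in both PBS Kupffer and both Nr1h3 control libraries, where 29.4% of all regions had one. Of the 53011 regions with a peak in both titled controls, which the rule required of members, 79.0% had one, more than of members. Of the 569, 225 (25.1% of members, 21.7% of all regions) also had a peak in both blood libraries and 297 (33.2%, against 5.83%) in neither. Among regions in both titled controls these shares were 60.3% and 14.1%. The 297 divided into 20 (2.23%, against 0.971% of all regions) with a peak in all 24 h libraries, 25 (2.79%, against 0.930%) that first had one at 48 h in both libraries, 130 (14.5%, against 1.52%) with none at 24 h or 48 h, and 122 (13.6%, against 2.40%) with other patterns. Peaks of Kupffer libraries alone, with none in blood, RLM or cultured libraries, made up 81 members (9.05%) and 1.02% of all regions. They made up 10.4% of losses not kept and 2.24% of regions in both titled controls.

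The highest Kupffer-only member lay near no gene, at chr8:26693821-26694104, with no peak in either TIM4- Nr1h3 knockout, 45.3 and 54.6 normalised tags in the TIM4+ knockouts, 120.3 and 73.3 in the Nr1h3 controls, 44.5 and 58.5 in PBS Kupffer cells and 46.0 and 48.7 in the titled controls. Apart from the TIM4- knockouts, the presence or absence of its peak in each Kupffer group was fixed by the rule and by the Kupffer-only choice. Near Cxcl1, a neutrophil chemokine, the member at chr5:90882226-90882496 had 56.6 and 60.5 in TIM4- knockouts and 49.7 and 54.8 in Nr1h3 controls, with 19.9 and 23 in PBS Kupffer cells and titled knockout peaks of 26.2 and 45.9 about 298 bp away. Near Cxcl13, a chemokine for B cells, the member at chr5:95914090-95914353 had 21.2 and 16.3 in TIM4- knockouts, 42.2 and 35.7 in Nr1h3 controls and 77.7 and 49.8 in PBS Kupffer cells. Its titled knockout libraries had no peak closer than 5175 bp. At Lhfpl3, all 3 members lacked a peak in the TIM4- knockouts and had one in both Nr1h3 controls (33.0 and 37.0, 16.8 and 17.2, and 23.7 and 17.2) and both PBS Kupffer libraries (46.4 and 48.9, 25.6 and 26.8, and 49.3 and 61.4), with none in blood, RLM or cultured libraries. Of the 81 Kupffer-only members, 35 had a peak in both TIM4- knockouts and 33 in neither.

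In TIM4- cells without LXRα the members called lower outnumbered those called higher, a split that turned round without centring of the libraries. TIM4- Nr1h3 knockouts were set against Nr1h3 controls with limma on log2(normalised tag count + 1), centred on each library's median, over the 46888 regions called in all 4 libraries. Of 588 members tested, 12 (2.04%) were higher and 90 (15.3%) lower at an adjusted p under 0.05, where 7.03% of all regions were higher, 6.68% lower and 13.7% either. The median member differed by -0.18, and the median region by 0.08, on the log2 scale. Without centring the TIM4- libraries were shifted up by 0.48, and 73 members were higher and 39 lower, and quantile scaling gave 13 higher and 59 lower. Among regions of the signal most members have, 3.73% were higher and 9.34% lower. Without the second control library 63 members passed, 11 higher and 52 lower. TIM4 state and genotype change together here, so they cannot be told apart. Presence gave 64 members (7.15%) with a peak in both Nr1h3 controls and neither TIM4- knockout, where 1.91% of all regions and 20.2% of losses not kept did so, and 34 (3.80%) with the opposite pattern, where 3.6% of all regions did so.

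Among members with a peak in all 4 libraries, the 3 that fell furthest had no protein-coding gene within 50 kb. The next lay 25307 bp from Cldn17 (log2 fold change -2.63). Members without a peak in the TIM4- knockouts have no value there and were not ranked. At chr6:101555214-101555606 the TIM4- knockouts had 8.25 and 6.54 normalised tags and the Nr1h3 controls 54.4 and 66.0, a log2 difference of -3.27 (SE 0.29, limma adjusted p = 8.98e-23). At chr10:119056551-119056853 they had 6.48 and 11.4, and the controls 57.8 and 41.6, a log2 difference of -2.78 (SE 0.30, limma adjusted p = 1.09e-16). At chr4:12501095-12501448 they had 11.2 and 9.26, and the controls 56.7 and 51.5, a log2 difference of -2.70 (SE 0.28, limma adjusted p = 3.72e-17). In each the groups are well apart, and PBS Kupffer cells reached 147 and 132 at the third. Among those higher in TIM4- knockouts, Iqgap2, which encodes a scaffold of the actin skeleton, had a member (chr13:95685782-95686092) at 93.7 and 86.1, against 35.9 and 22.4 in controls, a log2 difference of 1.23 (SE 0.21, limma adjusted p = 7.32e-07). The member 20949 bp from Lrrk2, a kinase of endolysosomal traffic (chr15:91651564-91651842), had 24.2 and 36.5 in TIM4- knockouts and 8.68 and 7.92 in controls (log2 fold change 1.32, SE 0.32, limma adjusted p = 0.000957). At Htr2a, a serotonin receptor gene (chr14:74646205-74646467), they had 31.8 and 32.7, and controls 13.3 and 8.58 (log2 fold change 1.10, SE 0.31, limma adjusted p = 0.00531). The Lrrk2 call was lost without the second TIM4- library (limma adjusted p = 0.0804), and the Htr2a call without that library or the second control, with a highest adjusted p of 0.0791.

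**Figure D3:**
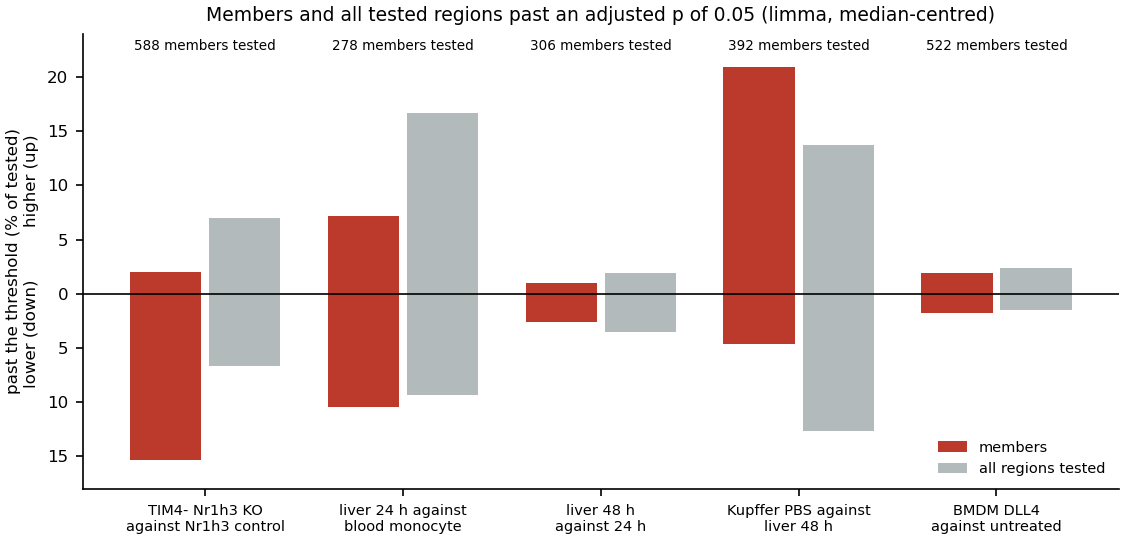
Percent of tested members (red bars) and of all tested regions (grey bars) that were higher (up) or lower (down) at a limma adjusted p under 0.05 in each of the 5 comparisons, median-centred. Members lean toward lower in TIM4- Nr1h3 knockouts (15.3%, against 6.68% of all, a lean that turns round without centring). In PBS Kupffer cells over 48 h RLMs they lean toward higher (20.9%, against 13.7%), a lean that narrows without centring.

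In the TIM4+ knockouts, whose peaks the rule required, 702 members had a value in all 4 libraries of that comparison. The groups did not overlap, with the knockouts higher, at 123 members (17.5%) and, with the knockouts lower, at 221 (31.5%), where 31.4% and 19.8% of all regions did so, and since the rule required the knockout peaks nothing is read from these shares. The median member differed by -0.04, and the median region by 0.08, on the log2 scale. The Nr1h3 controls enter both Nr1h3 comparisons.

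Kupffer identity genes had 5 members, 3 of them at Clec4f. The member over the Clec4f promoter (chr6:83656013-83656288), whose window is printed above, had 9.57 and 17.1 normalised tags in TIM4+ knockouts, 8.25 and 10.3 in TIM4- knockouts and 30.1 and 20.5 in Nr1h3 controls. TIM4- knockouts differed from these controls with a log2 fold change of -1.74 (its SE 0.32, limma adjusted p = 5.47e-06, and without centring -1.34 and 0.0015). The member had 30.9 and 24.6 in titled controls, 16.1 and 12.5 in PBS Kupffer cells, and no peak in blood, RLM or cultured libraries. Clec4f is the gene whose control elements drive cre in these mice, and the part this plays in the values was not tested. The member 3249 bp from the gene (chr6:83659365-83659685) had 12.4 and 20.2 in TIM4- knockouts, against 19.7 and 12.5 in controls (log2 fold change -0.39, limma adjusted p = 0.454). The member 27721 bp away (chr6:83616554-83616821) had a peak in all 17 libraries outside the rule, with 25.9 and 28.9 in TIM4- knockouts and 15.6 and 14.5 in controls (log2 fold change 0.42, limma adjusted p = 0.373, and without centring 0.82 and 0.0415). Of 16 regions nearest to Clec4f, 4 were titled losses and 1 had a peak in all 6 libraries.

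At Timd4, the member at chr11:46842281-46842618 had no peak in TIM4- knockouts and 19.1 and 13.9 normalised tags in Nr1h3 controls. It had 17.1 and 25.9 in PBS Kupffer cells and none in blood or RLMs, but also 19.6 and 13 in DLL4-treated and 15.4 and 13.1 in untreated cultured macrophages, so it is not a Kupffer-only site. The member 17141 bp from C6, a complement component gene made by mouse Kupffer cells (chr15:4821186-4821484), had 8.30 and 13 in TIM4+ knockouts, 9.69 and 10.4 in titled controls and 23.7 and 12.5 in PBS Kupffer cells, with no peak in TIM4- knockouts or Nr1h3 controls. These 5 members were 0.559% of all members, where Kupffer identity genes took 0.328% of all regions and 0.420% of losses not kept. They took 0.464% of regions in both titled controls. With genes within 10 kb they had 3 members (0.335%), against 0.240% of all regions and 0.328% of regions in both titled controls. Upstream of SMAD4, the ligands and the receptors of the TGF-β and BMP family had 0 members, and took 0.0393% and 0.131% of all regions, so that few or none would be found at the share of all regions.

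The SMADs and their cofactors had 3 members, at Smad9, Smad1 and Ski, which encodes a repressor of SMAD complexes. These were 0.335% of members, where this list took 0.147% of all regions and 0.120% of losses not kept. It took 0.185% of regions in both titled controls. With genes within 10 kb it had 2 members (0.223%), against 0.114% of all regions and 0.147% of regions in both titled controls. Over the Smad9 promoter, printed above, the member at chr3:54755218-54755683 had 18.3 and 9.80 normalised tags in TIM4- knockouts, 8.30 and 16.4 in TIM4+ knockouts and 6.94 and 7.26 in Nr1h3 controls (TIM4- against controls: log2 fold change 0.43, limma adjusted p = 0.450). It had 6.06 and 8.20 in titled controls and 12.3 and 8.63 in PBS Kupffer cells, all near the lowest values that are called. At Ski (chr4:155179085-155179327), which is also in the list of target genes, 24 h RLMs had 23.4, 22.7 and 17.1 and blood 32.6 and 66.3 (log2 fold change -0.85, limma adjusted p = 0.0434), a call that was lost without any 1 of the 5 libraries (highest adjusted p = 0.417). The Ski member had 22.4 and 29.4 in TIM4- knockouts and 19.1 and 17.8 in controls (limma adjusted p = 0.931). The member 44094 bp from Smad1, a SMAD of the BMP branch, had 13.1, 20.9 and 19.9 at 24 h and 32.6 and 42.3 in blood, with a limma adjusted p of 0.0855 (without centring 0.0370). Target genes had that 1 member, 0.112% of members, where they took 0.242% of all regions.

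LXR targets had 4 members, 0.447% of members, where they took 0.251% of all regions and 0.300% of losses not kept. They took 0.324% of regions in both titled controls. With genes within 10 kb they had 2 members (0.223%), against 0.190% of all regions and 0.262% of regions in both titled controls. Inside Abca1, the cholesterol exporter, the member at chr4:53134093-53134366 had 9.57 and 10.9 normalised tags in TIM4+ knockouts, 10.0 and 13.6 in TIM4- knockouts and 21.4 and 20.5 in Nr1h3 controls. TIM4- knockouts differed from controls with a log2 fold change of -1.19 (its SE 0.32, limma adjusted p = 0.00371, without centring 0.0550). That call was lost without the second control or without the first TIM4- library, with a highest adjusted p of 0.0977. The second Abca1 member, 38452 bp from the gene (chr4:53198440-53198692), had 14.1 and 10.3, against 12.1 and 19.8 in controls (log2 fold change -0.74, limma adjusted p = 0.123). Inside Abcg1, which exports cholesterol to high-density lipoprotein (chr17:31081022-31081328), TIM4+ knockouts had 14.0 and 21.8, TIM4- knockouts 14.1 and 16.9 and controls 16.8 and 16.5 (TIM4- against controls: log2 fold change -0.50, limma adjusted p = 0.306). That member had 12.7 and 23 in titled controls, and no peak in PBS Kupffer, blood, RLM or cultured libraries. Smpdl3a, a phosphodiesterase gene, had the remaining one. At Rxra, whose product is the dimer partner of LXRα (chr2:27749819-27750099), TIM4- knockouts had 12.4 and 12 and controls 25.4 and 19.8, a log2 difference of -1.23 (SE 0.32, limma adjusted p = 0.00216). This member had a peak only in Kupffer libraries, and the adjusted p stayed between 0.0232 and 0.0310 when any 1 library was left out.

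**Figure D4:**
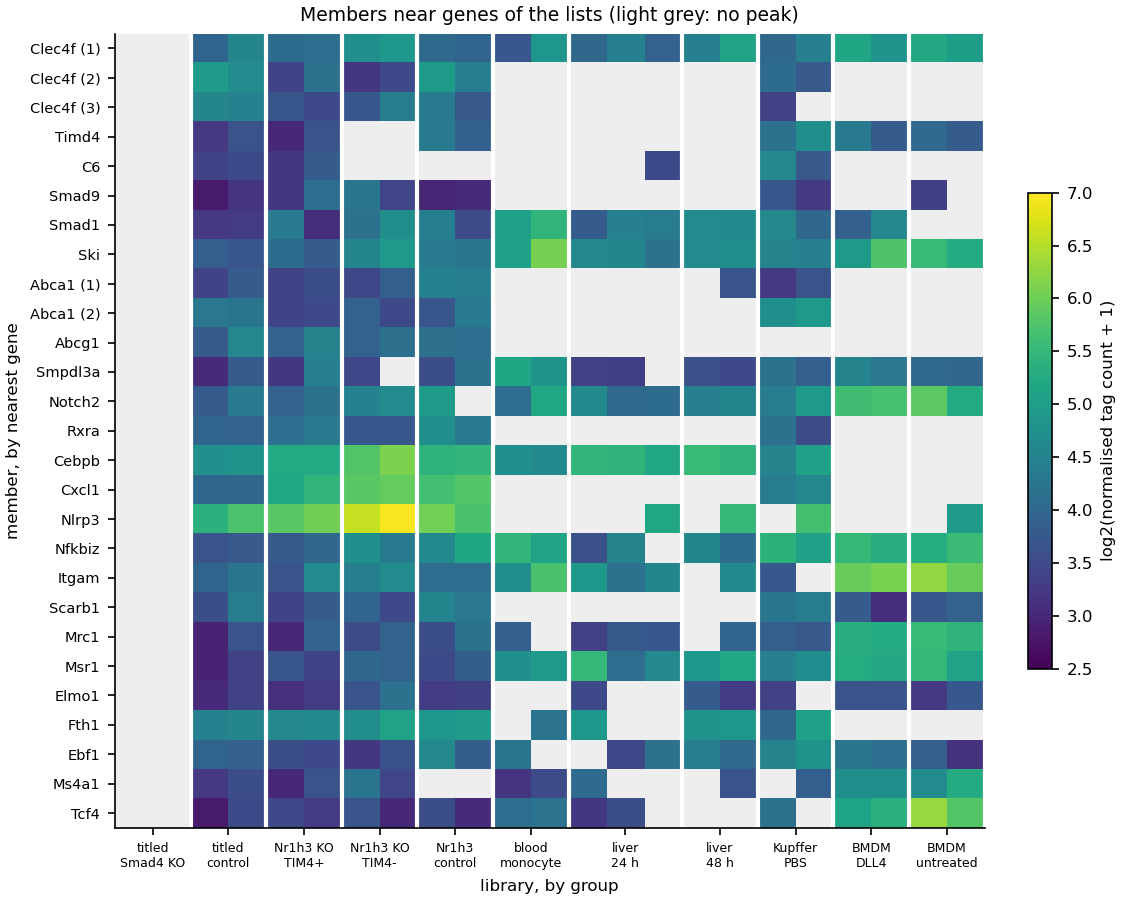
Signal of the 27 members near genes of the lists (rows) in each library (columns, by group), as log2(normalised tag count + 1), with light grey for a library without a peak. The Clec4f promoter member and Rxra are grey outside Kupffer libraries, whereas Msr1, Ski and the first Clec4f member are filled in every group but the titled knockouts.

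The members near listed genes were 27 in all, at 24 genes. Those not yet described lay at genes of inflammation, iron storage and uptake, at Cebpb, at Notch2 and at B cell and dendritic cell genes. Of the 22 tested in TIM4- knockouts, 1 (Nlrp3) was higher and 6 lower, where 7.03% of all regions were higher and 6.68% lower. Without centring 2 were higher, Nlrp3 and the Clec4f member in all 17 other libraries, and 2 lower, the Clec4f promoter and Rxra, and quantile scaling gave 0 higher and 5 lower. Beside the Clec4f promoter, Abca1 and Rxra, the lower ones were Scarb1, the high-density lipoprotein receptor, with 14.7 and 10.3, against 22.0 and 18.5 in controls (log2 fold change -1.07, limma adjusted p = 0.0111, without centring 0.101), Ebf1, a B cell factor, with 8.25 and 11.4, against 23.7 and 13.2 (log2 fold change -1.21, limma adjusted p = 0.00509, without centring 0.0545), and Nfkbiz, an atypical inhibitor of NF-κB, with 25.9 and 19.1, against 24.3 and 34.3 (log2 fold change -0.76, limma adjusted p = 0.0482, without centring 0.348, after quantile scaling 0.116). The higher one was Nlrp3, the inflammasome sensor, with 96.6 and 123.6, against 64.8 and 51.5 (log2 fold change 0.51, SE 0.18, limma adjusted p = 0.0389, after quantile scaling 0.160). Scarb1 and Nlrp3 lost their calls without either control or the second TIM4- library, Ebf1 without the first control or the first TIM4- library, and Nfkbiz without the second control or either TIM4- library. The highest adjusted p was then 0.139 at Scarb1, 0.353 at Nlrp3, 0.129 at Ebf1 and 0.650 at Nfkbiz. Over the Itgam promoter, printed above, the member at chr7:128062496-128062797 had 20.6 and 24.5 in TIM4- knockouts and 16.2 and 16.5 in controls (log2 fold change 0.03, limma adjusted p = 0.959), with its highest signal in culture, at 61.0 and 67.7 with DLL4 and 76.2 and 61.3 without it (log2 fold change -0.12, limma adjusted p = 0.799). The monocyte, hepatocyte, liver endothelial, stellate and neutrophil lists had no member, and took 0.146%, 0.0348%, 0.101%, 0.0303% and 0.0490% of all regions. The B cell list had 2, at Ebf1 and Ms4a1, 0.223% of members, against 0.0587% of all regions and 0.0396% of regions in both titled controls. The dendritic list had 1, at Tcf4, 0.112% of members, against 0.118% of all regions.

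Between blood monocytes and the first day in the liver, with libraries centred, members were called higher less often than all regions tested. They were called lower at near the share of all regions. Of 278 members tested between 24 h RLMs and blood, 20 (7.19%) were higher and 29 (10.4%) lower, where 16.7% of all 45317 regions were higher and 9.33% lower. Among regions of the signal most members have, 10.8% were higher and 8.15% lower. The 24 h libraries were shifted by -0.18 without centring, which gave 4 higher and 48 lower. Without the first or the second blood library 19 and 18 members passed in all. Tissue, strain and toxin treatment of these groups differ as well as time, so these cannot be told apart. Of all members, 23 (2.57%) had a peak in 24 h RLMs alone, where 1.83% of all regions did so, and 14 (1.56%) in blood alone, where 2.72% did.

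At Il1f10, a gene of the interleukin-1 family, the member 12466 bp away had 76.8, 41.8 and 15.2 normalised tags at 24 h and 7.33 and 13.4 in blood (log2 fold change 2.05, SE 0.41, limma adjusted p = 0.000365). At Snx24, a sorting nexin gene (chr18:53246978-53247349), 24 h RLMs had 103, 68.1 and 56.0, and blood 22.8 and 24.7 (log2 fold change 1.85, SE 0.27, limma adjusted p = 8.38e-06). The promoter member of Hmgn1 had 146, 141.6 and 81.6 at 24 h and 44.0 and 57.1 in blood (log2 fold change 1.5, SE 0.22, limma adjusted p = 7.48e-06). All 24 h libraries lie above both blood libraries at these members. Lower at 24 h was Apbb1ip, an adaptor of integrin activation (chr2:22816262-22816568), with 11.2, 16.3 and 14.2, against 61.9 and 81.8 in blood (log2 fold change -2.02, SE 0.32, limma adjusted p = 1.95e-05). Ankrd66 had 25.3, 18.2 and 24.7 at 24 h and 83.8 and 116.3 in blood (log2 fold change -1.82, limma adjusted p = 1.49e-05). Bin1, a membrane-bending protein gene 23205 bp from its member, had 18.7, 25.4 and 26.6 at 24 h and 71.6 and 84.6 in blood (log2 fold change -1.43, SE 0.29, limma adjusted p = 0.000467). Near Cebpb, a myeloid transcription factor gene 22552 bp away (chr2:167712984-167713681), 24 h RLMs had 43.1, 41.8 and 35.1 and blood 26.0 and 24.0 (log2 fold change 0.92, limma adjusted p = 0.0222, without centring 0.209). The Cebpb call was lost without the second blood or without the first or second 24 h library, with a highest adjusted p of 0.280.

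Between 48 h and 24 h few members differed. Of 306 tested, 3 (0.980%) were higher at 48 h and 8 (2.61%) lower, where 1.92% of 48442 regions were higher, 3.53% lower and 5.44% either. New peaks were more common than lost ones: 54 members (6.03%) had a peak at 48 h only, where 3.27% of all regions did so, and 1 (0.112%) at 24 h only, where 0.391% did, while the 48 h lists were also longer, at 75159 and 84395 peaks, against 63682 to 69027 at 24 h. At Ppp1r3b, a glycogen-targeting subunit of protein phosphatase 1, the member 5361 bp away had 27.9 and 30.1 at 48 h and 12.2, 8.17 and 10.4 at 24 h (log2 fold change 1.26, limma adjusted p = 0.0252). At Sec22c, a gene of vesicle transport (chr9:121697452-121697874), 48 h RLMs had 32.2 and 35.2, and 24 h RLMs 88.0, 90.8 and 69.2 (log2 fold change -1.43, SE 0.23, limma adjusted p = 0.000912). The Sec22c call held without any 1 library (highest adjusted p = 0.0371), while that of Ppp1r3b was lost without the second 24 h or either 48 h library (highest adjusted p = 0.217). In Evl, an actin-regulating Ena/VASP protein gene, and in Tmem135 the higher signal at 48 h lost its call without either 48 h library or the first or second 24 h library, and so did the lower signal in Acpp, an acid phosphatase gene (highest adjusted p of 0.251, 0.310 and 0.221). The Tmem135 call was also lost after quantile scaling (0.0630) and that of Acpp without centring (0.0749). Leaving out the third 24 h library gave 22 calls, and leaving out any 1 of the other 4 gave 1 to 5. No listed member of the 6 tested passed in this comparison with limma, and none had an unadjusted p under 0.05.

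In PBS Kupffer cells over 48 h RLMs, with libraries centred, members were called higher more often and lower less often than all regions tested. The rule required peaks in Kupffer libraries and set no condition on RLMs. The choice of members can itself give such a lean, and its part was not tested. Of 392 members tested, 82 (20.9%) were higher and 18 (4.59%) lower, where 13.7% of 46198 regions were higher, 12.6% lower and 26.4% either. Members called in either direction were near that last share. Among regions of the signal most members have, 12.3% were higher and 9.74% lower. The median member differed by 0.23 and the median region by -0.01 on the log2 scale. Cell population and treatment, toxin or PBS, change together here, so they cannot be told apart. Without centring, the Kupffer libraries were shifted by -0.30, and 48 members were higher and 35 lower, while quantile scaling gave 77 and 18. Without the second 48 h library 62 members passed, and without the first PBS Kupffer library 65, of which 58 and 52 were higher. Peaks of PBS Kupffer cells alone were found at 149 members (16.6%), where 2.94% of all regions had them. Those of 48 h RLMs alone were found at 31 (3.46%), where 8.32% of all regions had them. Among regions in both titled controls these shares were 4.69% and 2.42%. Against blood, PBS Kupffer cells alone had a peak at 328 members (36.6%), where 8.15% of regions did, and blood alone at 26 (2.91%), where 10.1% did. Losses not kept had the PBS Kupffer pattern at 32.9%, so it is shared with the wider set of titled losses. Regions in both titled controls had that pattern at 16.2%, and the blood pattern at 2.00%.

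Inside Gbe1, the glycogen branching enzyme gene, the member at chr16:70394350-70394696 had 131.8 and 124.6 normalised tags in PBS Kupffer cells and 8.72 and 11.0 at 48 h, a log2 difference of 3.86 (SE 0.29, limma adjusted p = 2.07e-16). It had 63.6 and 67.5 in TIM4- knockouts, 35.1 and 44.4 in TIM4+ knockouts, 59.0 and 58.1 in Nr1h3 controls and 19.4 and 21.3 in titled controls. The Gbe1 member had no peak in blood, and 9.45 and 19.2 in cultured macrophages with DLL4 and 24.6 and 24.5 without it. All Kupffer groups outside the rule had it, and PBS Kupffer cells had the most. Members with no gene nearby at chr15:11764901-11765354 and chr11:38123827-38124163 had 99.5 and 80.5, and 73.0 and 93.0, in PBS Kupffer cells, against 6.10 and 14.7, and 8.72 and 10.3, at 48 h (log2 fold changes of 3.38 and 3.27, limma adjusted p = 1.86e-12 and 1.27e-12). The member near Lrrk2 was lower in PBS Kupffer cells, with 16.1 and 20.1, against 72.3 and 83.6 at 48 h (log2 fold change -1.77, SE 0.28, limma adjusted p = 2.60e-06). Htr2a fell as well, to 15.2 and 17.3 in PBS Kupffer cells, against 44.4 and 60.9 at 48 h (log2 fold change -1.34, limma adjusted p = 0.000871). At Plxnc1, a semaphorin receptor gene 15077 bp from its member, PBS Kupffer cells had 16.1 and 14.4 and 48 h RLMs 37.5 and 59.4 (log2 fold change -1.29, limma adjusted p = 0.00196), a call lost without the second 48 h library (0.0904). Lrrk2 and Htr2a are also named above as higher in TIM4- knockouts. Of the 8 members higher there and tested in both comparisons, these 2 (25.0%) were lower in PBS Kupffer cells and 6 were not called. Over all regions higher in TIM4- knockouts and tested in both, 1097 of 3040 (36.1%) were lower in PBS Kupffer cells.

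Among the 316 members tested in both comparisons, 38 were lower in TIM4- knockouts, and of these 19 (50.0%) were higher in PBS Kupffer cells than at 48 h and 0 lower. Among the 270 members not called in TIM4- knockouts, 52 (19.3%) were higher in PBS Kupffer cells. Over all 39536 regions tested in both, 2304 were lower in TIM4- knockouts, and of these 1062 (46.1%) were higher and 85 (3.69%) lower in PBS Kupffer cells. The 2 comparisons share no library, and the members' share is near that of all regions. Of the 10 listed members tested against 48 h, 1 was higher and 0 lower: Nfkbiz, with 40.8 and 32.6, against 22.7 and 16.1 at 48 h (log2 fold change 1.18, limma adjusted p = 0.00500). The Nfkbiz call was lost without the first PBS Kupffer library or the second 48 h library, with a highest adjusted p of 0.101.

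In culture, DLL4 moved few members. Of 522 tested, 10 (1.92%) were higher and 9 (1.72%) lower with DLL4 than without it, where 2.36% of 72015 regions were higher, 1.52% lower and 3.88% either, and leaving out any 1 library left 2 to 8 members called. Members were thus called at about the share of regions in general. Peaks with DLL4 alone were found at 16 members (1.79%), where 1.61% of regions had them, and without it alone at 11 (1.23%), where 1.53% did. Inside Tnfrsf11a, which encodes RANK, the receptor that drives osteoclast formation (chr1:105795654-105796044), DLL4-treated macrophages had 90.1 and 97.8 normalised tags and untreated ones 36.9 and 24.5 (log2 fold change 1.58, SE 0.20, limma adjusted p = 1.97e-09). Its call held without any 1 library, with a highest adjusted p of 0.00364. Of the 14 listed members tested, 0 were higher and 1 lower: Tcf4, an E protein gene, which fell to 33.4 and 40.4, against 78.0 and 54.3 (log2 fold change -0.84, limma adjusted p = 0.00860), a call lost without the first untreated or the first DLL4 library (highest adjusted p = 0.318). The remaining named calls, higher at Pcdh1 and Pmch and lower at Cnksr3 and at chr10:20841473-20841774, were each lost without at least 3 of the 4 libraries in turn, with highest adjusted p between 0.181 and 0.325, and that of Cnksr3 also without centring (0.0620). At the member 16871 bp from Ahr, the aryl hydrocarbon receptor (chr12:35480822-35481108), DLL4-treated macrophages had 23.3 and 20.5 and untreated ones 44.2 and 42.9 (log2 fold change -0.997, limma adjusted p = 0.0127). The Ahr member had 22.7 and 38.9 at 48 h and 81.4, 45.4 and 70.2 at 24 h (log2 fold change -1.24, limma adjusted p = 0.0118, without centring 0.0523). Ahr lost its call without 3 of the 4 cultured libraries, the second treated one and both untreated ones, and without the first 24 h or either 48 h library, with a highest adjusted p of 0.188 in each comparison. The Ahr member was also lower at 24 h than in blood, which had 136.7 and 195.9 (log2 fold change -1.08, limma adjusted p = 0.000384). It was lower too in PBS Kupffer cells, with 8.53 and 13.4, than at 48 h (log2 fold change -1.11, limma adjusted p = 0.0127). No list member at Notch2, a Notch receptor gene (chr3:98087587-98087901), passed with DLL4 (limma adjusted p = 0.943).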

How the data were processed

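Peaks of 23 ATAC-seq libraries in 11 groups were analysed. The submitters' processing notes name the mm10 build, Bowtie2 and HOMER, without their versions. Per the file headers, each library's peaks were called alone, in factor style at a peak size of 200 bp, an FDR of 0.001, a 4-fold excess over the local 10 kb and a local Poisson p of 0.0001. The signal values are normalised tag counts, scaled to 10 M tags per library per the file headers, and the ratio values, the fold over local signal, come from the same deposited lists. The findPeaks score values in the deposited lists entered no result.

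Peaks that overlapped by at least 1 bp were merged over all files, leaving out 1205 peaks off the autosomes and X. Members and gene lists were chosen with earlier results of these data known, and the gene-list counts are not independent evidence. A region without a peak has no value. Regions with a peak in each library compared were tested with limma 3.58.1 (R 4.3.3) with a mean-variance trend on log2(normalised tag count + 1), centred on library medians, and p-values were adjusted by Benjamini-Hochberg over all regions tested in each of 5 comparisons. The fit was tested on simulated data. Fold changes on this scale understate changes at low values. Members were named as the 12 of highest mean signal, the 3 of largest change per direction in each comparison, members near genes of 19 lists (1 listed gene is not reported here and stays out of the list counts), and Kupffer-only members and genes with several members of highest signal. Genes are protein-coding RefSeq genes of GRCm38.p6 within 50 kb, and promoter sequences are RefSeq's, with chromosome 18 not used for promoters. Alternatives were no centring, quantile scaling, a pseudocount of 5 and a minimum mean of 20. Others were genes within 10 kb, another overlap, local fold and list length, a replicate block, and leaving out each library.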

Additional observations from a re-analysis of the deposited data

How the results depend on the processing

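Member counts were 932 with an overlap of 100 bp, 914 with only the 6 libraries of the rule merged, 859 with a local fold of 6, 654 with equal lists and 633 with no titled knockout peak within 1 kb, and 1127 to 3139 without 1 library of the rule, highest without the second titled knockout. Counts of members past the threshold, of 102 in TIM4- knockouts, 49 at 24 h, 11 at 48 h, 100 in PBS Kupffer cells and 19 with DLL4, were 63 to 75, 18 to 72, 1 to 22, 62 to 101 and 2 to 8 without 1 library. Other settings that moved a count by over 1.5 times were a minimum mean of 20 for TIM4- knockouts (56), no centring for 48 h (4), quantile scaling for DLL4 (9) and, chosen after seeing the data, members with no titled knockout peak within 1 kb for 24 h (32). Equal lists gave shares of 28.9% for blood, 32.2% for 24 h, 40.7% for 48 h, 66.7% for TIM4- knockouts, 39.9% for DLL4 and 38.7% for untreated macrophages. With genes within 10 kb, members fell from 5 to 3 at Kupffer identity genes and from 4 to 2 at LXR targets. They fell from 2 to 1 at macrophage transcription factor genes and from 1 to 0 at iron and heme genes. The causes were not tested, apart from the fewer regions or samples that some settings leave.

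With the replicate number as a block, 101 members passed in TIM4- knockouts (12 higher, 89 lower) and 16 with DLL4 (8 higher, 8 lower), and of the named members the Nfkbiz call in TIM4- knockouts was lost. Same-numbered libraries deviated with correlations of -0.0043 and -0.038, so the numbers give no pairing. Of 41 named calls, 31 held under every scaling, pseudocount and low-value setting, 19 held without any 1 library, and 0 reversed. Depth limits absences: a region without a peak may hold tags under the threshold.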
